A study of Mus musculus with 2 samples.

Results

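The slow and cardiac myosin heavy chain genes are Myh6, Myh7 and Myh7b, 3 of the 21851 protein-coding genes measured here and 3 of the 14 myosin heavy chain genes of the mouse listed for this comparison. Each was taken by name with its GENCODE M21 gene body (mm10) and 50 kb on either side, a rule that uses no measured value. Accessible chromatin was mapped by DNase-seq, in which nuclei are cut with the enzyme DNase I and the cut ends are sequenced, in gastrocnemius, the large calf muscle, from 10-day-old males of the hybrid strain B6CASTF1/J. The study holds a single group of 2 biological replicates. The label of each names 3 males, both point to the same donor record, and nothing says how the males were divided or pooled, so every difference given below is a spread between these 2 samples, which may be partly technical. The tissue is whole muscle, in which fewer cells of a type and less open chromatin per cell cannot be told apart.

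The heavy chain is the motor subunit of the sarcomere and sets the speed of contraction. Myh7 encodes the beta (slow) chain of type 1 fibres and of the ventricle, Myh6 the alpha chain of the adult mouse heart, and Myh7b an older slow-type chain that is best known from eye muscles. Each of these genes carries a microRNA gene in an intron: Mir208a in Myh6, Mir208b in Myh7 and Mir499 in Myh7b. In mice these microRNAs are known to act on repressors of slow muscle genes, so gene and microRNA are usually described together. At 10 days after birth the mouse gastrocnemius is becoming a mainly fast muscle in which slow fibres are a minority.

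The mature microRNAs are shown because they are what the 3 introns encode in common. They are given 5′ to 3′ from RefSeq (GRCm38.p6), with the seed, bases 2 to 8, in capitals.
miR-208a-3p: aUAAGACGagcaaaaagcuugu
miR-208b-3p: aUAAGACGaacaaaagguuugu
miR-499-5p: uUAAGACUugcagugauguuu
miR-208a-3p and miR-208b-3p had the same seed, which no other mature mouse microRNA in the table carried, and differed at 3 positions outside it, counted from the 5′ end (G10A, A16G and C18U). The seed of miR-499-5p matched theirs over its first 6 bases. Mir208a lay in intron 29 of Myh6 at chr14:54949060-54949142, Mir208b in intron 31 of Myh7 at chr14:54975700-54975776, and Mir499 in intron 19 of Myh7b at chr2:155622880-155622958.

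The authors deposited 123255 peaks in replicate 1 and 150088 in replicate 2 in the wider of 2 peak sets per library. A peak's value is a depth-scaled signal, and 100% of the values were whole multiples of 1 step per library (0.00544 in replicate 1 and 0.00587 in replicate 2), read here as tags, so that the median peak held 134 and 122 tags. A peak is called shared where it overlaps a peak of the other replicate by at least 1 bp. Shared peaks numbered 96434 in replicate 1 (78.2% of its peaks) and 96185 in replicate 2 (64.1% of its peaks). Shared peaks are counted below as those of replicate 1, each set beside the highest peak of replicate 2 that overlaps it. They had a median value of 0.941 in replicate 1 and 1.16 in replicate 2 and a median ratio of replicate 2 to replicate 1 of 1.18. A base is called listed where the authors gave it a false discovery rate (FDR) below 0.05 for its rate of cuts. All of these files hold called peaks or bases, so a 0 below means that nothing was called and not that no cut was seen.

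The tissue label was checked first. All 7 genes of skeletal muscle nuclei on the list had a promoter peak in both replicates, as had 13 of 14 fast fibre genes, all but Myh2. A promoter peak is a peak within 500 bp of the start of a coding transcript, which 65.4% of all protein-coding genes had in both replicates. Of 13 cardiac genes, 6 had one in both replicates: Gata4, Hand2, Nppa, Nppb, Ryr2 and Myocd. Hand1 had one in replicate 1 only, and Tbx20 and Tnnt2 had one in replicate 2 only. The cardiac genes Nkx2-5, Myl7, Mybpc3 and Tnni3 had none in either replicate, though Tnni3 gained one when coding transcripts outside the GENCODE basic set were included. The promoter values of all 13 summed to 6.23 in replicate 1 and 6.36 in replicate 2. Satellite cell, endothelial, fibroblast and smooth muscle markers had one in both replicates in 4 of 4 genes each. Schwann cell markers had one in 1 of 3 genes and macrophage markers in 0 of 4, though Csf1r and Cd68 had one in replicate 2 alone.

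None of the 3 slow and cardiac heavy chain genes had a promoter peak in either replicate, where 67.3% of protein-coding genes had one in replicate 1 and 67.3% in replicate 2. The bases within 500 bp of their coding starts also held no listed base in either replicate. Each of the 3 starts lay in CpG-poor sequence: the CpG content of the 1 kb around the gene start was 0.100 of that expected from base composition at Myh6, 0.156 at Myh7 and 0.149 at Myh7b. These values put all 3 genes in the most CpG-poor of 5 groups of protein-coding genes of equal size, of which 11.1% (485 of 4371) had a promoter peak in both replicates, so a start without a peak was the common state among starts of this composition.

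The promoters are printed because the 3 genes are compared at their starts and because the letters show what lies in the sequence without a peak. Each runs from 250 bases before the RefSeq start to 50 after it, 5′ to 3′ on the strand of the gene (RefSeq, GRCm38.p6, the reference strain, whereas the hybrid animals also carry a CAST genome), with matches to the motifs searched in capitals.
Myh6 promoter, chr14:54966558-54966857, minus strand: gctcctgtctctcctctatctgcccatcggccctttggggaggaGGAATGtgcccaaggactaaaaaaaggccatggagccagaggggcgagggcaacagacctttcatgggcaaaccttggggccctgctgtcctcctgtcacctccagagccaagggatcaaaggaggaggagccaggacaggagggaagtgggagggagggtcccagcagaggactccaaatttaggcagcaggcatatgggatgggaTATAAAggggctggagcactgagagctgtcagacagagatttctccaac
Myh7 promoter, chr14:54994577-54994876, minus strand: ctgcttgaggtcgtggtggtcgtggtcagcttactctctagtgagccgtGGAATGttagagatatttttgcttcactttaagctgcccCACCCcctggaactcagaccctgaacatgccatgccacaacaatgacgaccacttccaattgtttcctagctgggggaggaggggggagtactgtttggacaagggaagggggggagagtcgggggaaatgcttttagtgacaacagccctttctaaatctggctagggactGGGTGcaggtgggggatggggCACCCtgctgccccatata
Myh7b promoter, chr2:155610993-155611292, plus strand: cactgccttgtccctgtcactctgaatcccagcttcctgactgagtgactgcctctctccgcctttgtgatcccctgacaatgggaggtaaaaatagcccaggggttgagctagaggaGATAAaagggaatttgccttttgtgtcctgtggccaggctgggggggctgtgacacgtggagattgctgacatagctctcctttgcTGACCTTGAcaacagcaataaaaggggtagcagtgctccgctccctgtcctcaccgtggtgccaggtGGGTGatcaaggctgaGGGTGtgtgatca
The search covered both strands. It used the MCAT letters CATTCC, to which TEAD factors bind, the E-box CAGCTG of the MYOD family and GATAA for the zinc finger factors named after it. It also used AGGTCA for nuclear receptors, TCAAGGTCA for the ERR orphan receptors, which overlaps it, TATAAA for the basal promoter box, CACCC for KLF and SP factors and TTGGCA for NFI factors. The AP-1, MEF2, CArG and CTCF motifs were searched by name. Myh6 and Myh7 each held an MCAT element, its first base at -206 from the RefSeq start in Myh6, a motif found in 14.7% of 32851 RefSeq promoters. Myh6 alone of the 3 held TATAAA (13.6% of promoters), and its first base lay at +2 from the RefSeq start, 1 bp before the start of one GENCODE transcript of Myh6 and 32 bp before that of another, Myh6-203. Myh7b held GATAA at -132 (25.4% of promoters) and an ERR motif at -46 (0.423% of promoters). The first base of the ERR motif lay 15 bp before the GENCODE start of the coding transcript Myh7b-201. CACCC, present in 57.5% of promoters, occurred 3 times in the Myh7 promoter and 2 times in that of Myh7b. No promoter of the 3 held a MEF2 or CArG match under these strict patterns. A match is a description of the sequence and says nothing of binding.

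Myh6 and Myh7 lie head to tail on chromosome 14, Myh7 at chr14:54970684-54994626 (23943 bp) and Myh6 at chr14:54941921-54966927 (25007 bp), both on the minus strand. Neither gene body held a peak, a listed base or a footprint in replicate 1 or in replicate 2. Mir208a and Mir208b therefore lay without any called site, as did the heart-expressed antisense RNA Mhrt, which starts between the genes, and the antisense transcripts Gm29015 and Gm31251. A gene body without a peak in both replicates was found for 26.6% of protein-coding genes. Among genes with a body of 0.8 to 1.25 times the length, 17.6% (477 of 2709) had none for Myh6 and 18.2% (496 of 2723) for Myh7, and the median such gene had 2 peaks in each replicate.

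The stretch without listed bases was longer than the genes. No base was listed in either replicate from chr14:54939717 to 54995583, 55867 bp that hold both genes and the space between them. Of 276600 gaps between listed bases genome-wide, 9035 (3.27%) were at least as long. Each gap counts once whatever its length, so this is a share of gaps and not of the genome. Reads that map to several places could leave such a gap, so the uniqueness of the sequence was measured: 89.6% of the 32-base words of the stretch occurred once in the reference genome. Within the bodies the share was 89.5% in Myh6 and 87.0% in Myh7, and 8.58% of the Myh6 words and 8.96% of the Myh7 words recurred in the partner gene, as is known for these near copies. Myh7b, in which peaks were called, had 99.2% unique words. The part of read mapping in the gap was not tested.

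**Figure D1:**
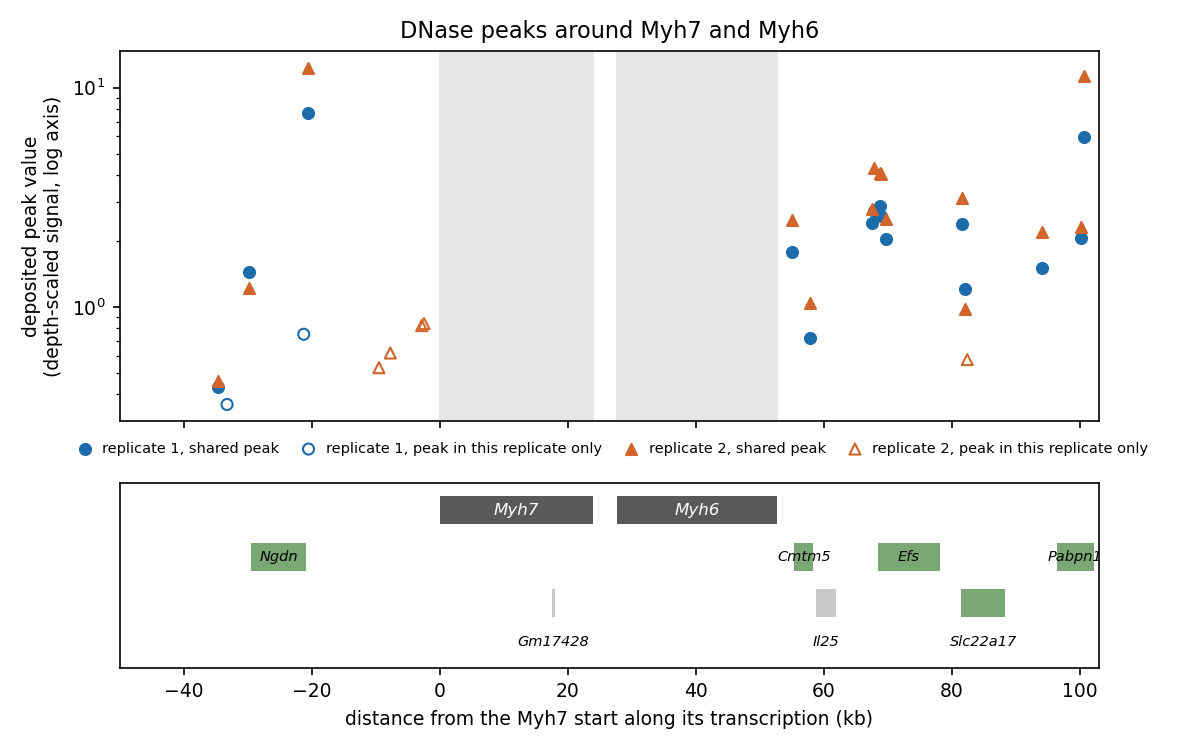
Deposited peak values (log axis, depth-scaled signal) against distance from the Myh7 start along its transcription (kb) in the joint window of Myh7 and Myh6, with circles for replicate 1 and triangles for replicate 2, filled where the peak is shared and open where it was called in that replicate only. Grey bands mark the 2 gene bodies, and the lower panel shows coding genes, green with a promoter peak in both replicates and grey without. All 15 shared peaks lie outside the bodies, and the 4 open triangles just before the Myh7 start are the only peaks within 10 kb before it.

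All accessible sites of the pair were in the flanks. The joint window, chr14:54891921-55044626, held 15 shared peaks, or 98.2 per Mb, against 38.1 per Mb over the autosomes, which include sequence far from genes. It held 2 further peaks of replicate 1 alone and 5 of replicate 2 alone. A peak of 1 replicate alone could still hold listed bases of the other. Of the replicate 1 peak at chr14:55015701-55016048 (348 bp), 302 bp were listed in replicate 2. Of the replicate 2 peak at chr14:54912170-54912300 (131 bp), 44 bp were listed in replicate 1. The median window of a protein-coding gene held 10 peaks in replicate 1 and 12 in replicate 2. In the same order the Myh6 window held 14 and 18 and the Myh7 window 12 and 14. Of the 15 shared peaks, 13 had the higher value in replicate 2, with a median ratio of 1.40. The highest was at Ngdn, the neuroguidin gene that neighbours Myh7, 303 bp before a start, with 7.68 in replicate 1 and 12.3 in replicate 2, and 96.3% of shared peaks were lower. Pabpn1, a poly(A)-binding protein gene at the far end, followed with 5.98 in replicate 1 and 11.3 in replicate 2. The listed share of the 50 kb window was 5.37% and 6.27% for Myh6 and 3.88% and 4.64% for Myh7 in replicates 1 and 2, which was above 84.3% and 86.1% of genes for Myh6 and above 71.5% and 74.0% of genes for Myh7. The median gene had 2.42% in replicate 1 and 2.81% in replicate 2. The windows of Myh6 and Myh7 overlap, so these are not separate observations.

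The remaining 8 of the 10 highest sites of this window were near Efs, Slc22a17 and Pabpn1 and beside Cmtm5. Efs, a docking protein gene, accounted for 5 of them, which overlap in part, with values between 2.04 and 2.87 in replicate 1 and between 2.51 and 4.30 in replicate 2. Slc22a17 had a promoter value of 2.40 in replicate 1 and 3.15 in replicate 2. A second Pabpn1 site had 2.07 and 2.31. The site nearest to the Myh6 end, chr14:54939481-54939660, had 1.78 in replicate 1 and 2.49 in replicate 2 and 4 shared footprints, and it lay between the end of Cmtm5 and the antisense gene Gm49130. Cmtm5 had the lowest promoter value of the open neighbours, 0.723 in replicate 1 and 1.04 in replicate 2. Of 7 other coding genes with a start in the window, 5 had a peak there in both replicates, and Il25 and Gm17428 had none. None of the 4 antisense genes and neither microRNA gene had one.

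Before the Myh7 start the replicates differed. Replicate 2 had 4 peaks within 10 kb, whose centres lay 2465, 2825, 7731 and 9508 bp before the start. Their values were 0.839, 0.822, 0.616 and 0.528, from 143, 140, 105 and 90 tags. Counting error alone put the first between 0.707 and 0.989 and the last between 0.425 and 0.649 (exact Poisson intervals at 95%, which cover counting error only). In replicate 2 as a whole 56.0% of peaks were lower than the first and 35.9% lower than the last, so these were middling peaks of that library. The first 2 were also in its stricter peak set. Replicate 1 had no peak and no listed base at any of the 4 positions, and its only listed bases within 10 kb before Myh7 were 44 bp at -981 bp, with a lowest FDR of 0.0361.

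A pattern of this kind was rare. At least 4 peaks of replicate 2 alone in the 10 kb before a gene start were found for 0.513% of protein-coding genes, and 12 genes (0.0549%), Myh7 among them, had these and no other peak of either replicate there. The limit of 4 was set after the Myh7 value was seen, so this share is a description. Replicate 2 had more peaks of its own than replicate 1 (53903 against 26821), of which the median GC content was 52.5% and 55.3%, and the 4 sites before Myh7 had 51.7% to 53.8%. The part of library differences in the 4 sites was not tested.

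The nearest and the farthest of the 4 sites overlapped known heart enhancers. RefSeq lists 2 VISTA elements in the window, sequences that were tested as reporters in transgenic mouse embryos. Element mm771, chr14:54996894-54997224, was active in the heart of 7 of 7 embryos and covered the peak at 2465 bp. Element mm1288, chr14:55003765-55004913, was active in the heart of 7 of 8 embryos and covered the peak at 9508 bp. Replicate 1 had no listed base in either element, whereas replicate 2 had 245 bp in mm771 and 106 bp in mm1288. Among the 89 VISTA elements active in heart alone, 58.4% had a peak in replicate 2, 43.8% in replicate 1 and 42.7% in both, and over all 620 elements the shares were 57.6%, 50.8% and 48.1%, so a peak on such an element was common in this muscle.

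**Figure D2:**
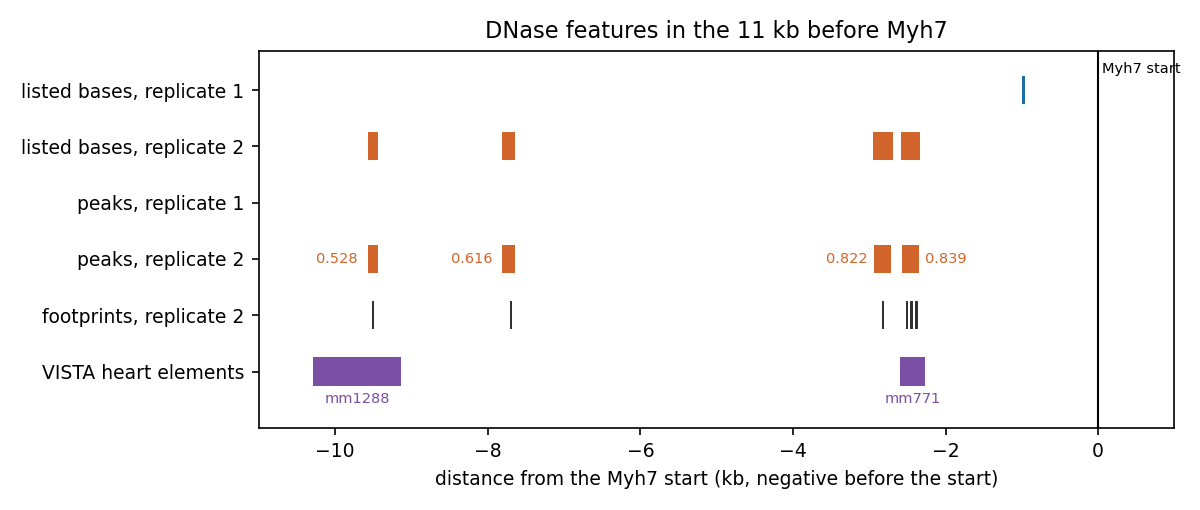
Map of the 11 kb before the Myh7 start (distance in kb on the horizontal axis), with listed bases and peaks of each replicate, footprints of replicate 2 and the 2 VISTA heart elements. Numbers beside the replicate 2 peaks are their deposited values. The row of replicate 1 peaks is empty, and its 44 listed bases coincide with no feature of replicate 2.

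The sequences of the 2 sites within VISTA elements are shown 5′ to 3′ on the strand of Myh7 (minus), with the footprints of replicate 2 in capitals.
Site 2465 bp before Myh7, chr14:54996981-54997200: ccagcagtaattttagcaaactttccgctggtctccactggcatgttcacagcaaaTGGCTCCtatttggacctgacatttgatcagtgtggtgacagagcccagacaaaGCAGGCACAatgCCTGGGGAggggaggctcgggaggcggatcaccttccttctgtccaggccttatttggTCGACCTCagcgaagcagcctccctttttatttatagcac
Site 9508 bp before Myh7, chr14:55004069-55004198: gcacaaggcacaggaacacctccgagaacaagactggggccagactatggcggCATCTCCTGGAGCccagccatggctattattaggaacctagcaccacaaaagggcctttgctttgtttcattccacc
The first held a CArG box, the element bound by SRF, at base 171 of the sequence as printed and, outside its central 150 bp, a MEF2 match near its 3′ end. The second held a MEF2 match at base 77 and the MCAT letters CATTCC at base 122. In the central 150 bp of shared peaks a CArG box occurred in 0.567%, a MEF2 match, as in the second site, in 0.930% and MCAT in 8.69%. None of these matches lay inside a footprint, and no footprint of the 4 sites had a counterpart in replicate 1. The site at 2825 bp held CAGCTG and AGGTCA, likewise outside its footprint.

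Myh7b was open inside the gene and not at its start. It lies on chromosome 2 at chr2:155611212-155634307 on the plus strand (23096 bp). Its body held 11 peaks in replicate 1 and 4 in replicate 2, and the 4 of replicate 2 were all shared. At least 1 shared peak was found in 64.6% of gene bodies and at least 4 in 21.5%, and among genes of like length 14.7% (400 of 2722) had 4 or more. Listed bases made up 12.8% of the body in replicate 1 and 4.74% in replicate 2, which was above 89.3% and 69.5% of genes. The replicates thus gave the same 4 sites but a body cover that differed by more than 2-fold.

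The 4 shared sites were spread over the gene. The highest, chr2:155619961-155620100, lay 8819 bp past the start in intron 11, upstream of Mir499 by 2849 bp, and had 6.41 in replicate 1 and 5.85 in replicate 2. Of all shared peaks 92.0% were lower, and the counting intervals, 6.05 to 6.79 and 5.49 to 6.23, overlapped. The second, chr2:155627121-155627300, at 15999 bp in intron 24, had 3.80 in replicate 1 and 2.86 in replicate 2, with 83.3% of shared peaks lower. Its intervals, 3.52 to 4.09 and 2.61 to 3.12, did not overlap. The site at 2389 bp in intron 4 had 1.71 and 1.12, and its intervals, 1.52 to 1.91 and 0.968 to 1.29, did not overlap either. The site at 18209 bp over exon 29 had 1.10 and 1.05, with intervals of 0.957 to 1.27 and 0.902 to 1.22 that overlapped. The last lies 181 and 202 bp from the start of Myh7b-202, a processed transcript that codes for no protein. All 4 were lower in replicate 2, with ratios of 0.656 to 0.952, while 35% of shared peaks genome-wide were lower in that replicate.

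Both of the highest intragenic sites held the same CTCF core. They are printed on the plus strand, 5′ to 3′, with bases inside footprints of both replicates in capitals.
Myh7b site at 8819 bp: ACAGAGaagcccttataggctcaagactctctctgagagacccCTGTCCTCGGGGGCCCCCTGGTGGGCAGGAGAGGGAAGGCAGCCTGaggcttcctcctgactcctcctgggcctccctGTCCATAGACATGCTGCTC
Myh7b site at 15999 bp: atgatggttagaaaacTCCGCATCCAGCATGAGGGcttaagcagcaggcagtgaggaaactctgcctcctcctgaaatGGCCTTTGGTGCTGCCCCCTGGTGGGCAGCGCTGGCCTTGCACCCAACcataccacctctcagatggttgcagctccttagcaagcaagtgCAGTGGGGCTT
The run GCCCCCTGGTGG, the reverse complement of the core motif of CTCF, a factor that organises chromosome loops, began at base 56 of the first and at base 92 of the second, in the same orientation. In each site the run lay inside a footprint in both replicates: 48 bp in replicate 1 and 47 bp in replicate 2 at the first, and 48 bp in both at the second. A CTCF core was found in the central 150 bp of 5.72% of shared peaks. In the flanks of Myh7b a core also lay in the site at chr2:155584261-155584440 (1.41 and 1.27), and in the window of Myh6 and Myh7 in the sites at chr14:54900501-54900700 (1.51 and 2.19) and chr14:55024361-55024520 (1.44 and 1.22), which lie on opposite sides of the stretch without listed bases. The other 2 sites of the Myh7b body held none of the motifs searched in their central 150 bp.

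The 7 peaks of replicate 1 alone lay in the downstream part of Myh7b, between 13704 and 21156 bp past the start. Their values ran from 0.549 to 0.848, from 101 to 156 tags, and 36.6% to 56.0% of the peaks of replicate 1 were lower. Replicate 2 had no listed base in any of them. The centres of 3 fell in exons 25, 33 and 36 and those of the other 4 in introns 21, 26, 30 and 31, and 2 of the 7 were in the stricter set of replicate 1. At least 7 peaks of replicate 1 alone, with none of replicate 2 alone, were found in 61 gene bodies (0.279%), a limit also set after the value was seen. The GC content of these 7 peaks ran from 57.6% to 66.3%, against a median of 55.3% for peaks of replicate 1 alone, and its part in them was not tested.

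**Figure D3:**
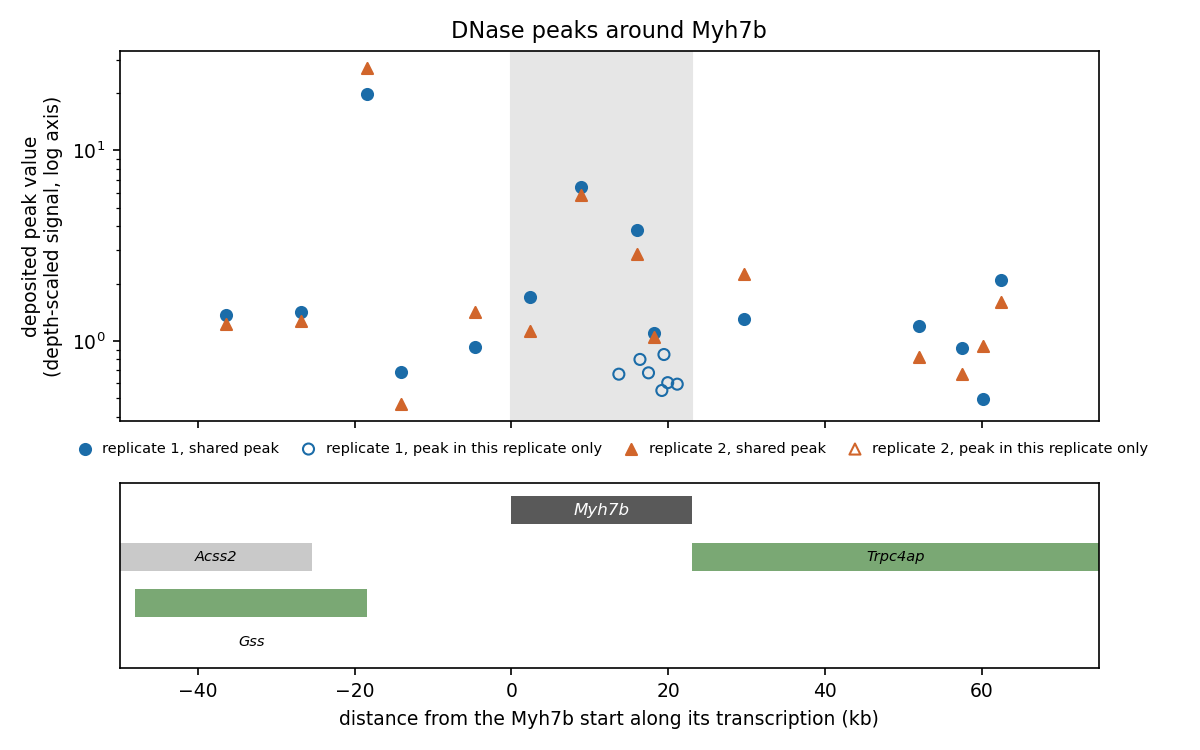
Deposited peak values (log axis, depth-scaled signal) against distance from the Myh7b start along its transcription (kb), with circles for replicate 1 and triangles for replicate 2, filled for shared peaks and open for peaks of 1 replicate. The grey band is the gene body and the lower panel shows coding genes, green with a promoter peak in both replicates and grey without. The start itself has no point, and the 7 open circles of replicate 1 lie in the downstream part of the body.

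Footprints followed the peaks. The Myh7b body held 36 footprints in replicate 1 and 14 in replicate 2, and 10 overlapped between replicates. Genome-wide, 59.8% of the footprints of replicate 1 and 49.3% of those of replicate 2 were shared. Over the whole 50 kb window of Myh7b 30 of 66 footprints of replicate 1 and 26 of 41 of replicate 2 were shared, and in the joint window of Myh6 and Myh7 the counts were 34 of 59 and 32 of 68.

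The Myh7b window, chr2:155561212-155684307, held 14 shared peaks (114 per Mb), 7 of replicate 1 alone and 0 of replicate 2 alone. Its listed share was 4.85% in replicate 1 and 3.42% in replicate 2, above 80.8% and 59.5% of genes. The highest site was the promoter of Gss, the glutathione synthetase gene 5′ of Myh7b, with 19.9 in replicate 1 and 27.2 in replicate 2 and 99.9% of shared peaks lower. The antisense gene Gssos1 shares that peak. The site closest to the Myh7b start from outside lay 4645 bp before it and had 0.930 and 1.41. Trpc4ap, a channel-associated protein gene that converges on Myh7b from the 3′ side, had 1.31 and 2.24 at the most open of its 6 starts in the window. The 5′ end of Trpc4ap, at chr2:155692384, lies outside the window, so this value is not that of its 5′-most start. In its body 4 further shared sites had between 0.495 and 2.10 in replicate 1 and between 0.669 and 1.60 in replicate 2. The starts of Acss2 within the window, Gssos2, Gm14257, Mir499 and the small nucleolar RNA gene Gm22334 had no peak. The remaining 3 shared sites, on the Gss side, had 1.38, 1.41 and 0.685 in replicate 1 and 1.23, 1.27 and 0.464 in replicate 2.

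Among the 14 myosin heavy chain genes 7 had a promoter peak in both replicates, and the 7 without were the 3 slow and cardiac genes, Myh2, Myh3, Myh13 and Myh15. The highest were the non-muscle genes Myh9, with 10.7 and 20.1, and Myh10, with 11.3 and 19.3. Of the sarcomeric genes Myh8, the perinatal chain, had 1.45 and 1.14, Myh4, the 2B chain, 0.631 and 0.874, and Myh1, the 2X chain, 0.489 and 0.874. Body cover gave another order: Myh7b was highest of the 14 in replicate 1 (12.8%), and in replicate 2 (4.74%) it came after Myh9 (7.47%) and Myh3 (5.05%). Myh6 and Myh7 were the only 2 with no listed base in the body in both replicates, since Myh8, at 0% in replicate 1, had 0.397% in replicate 2.

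**Figure D4:**
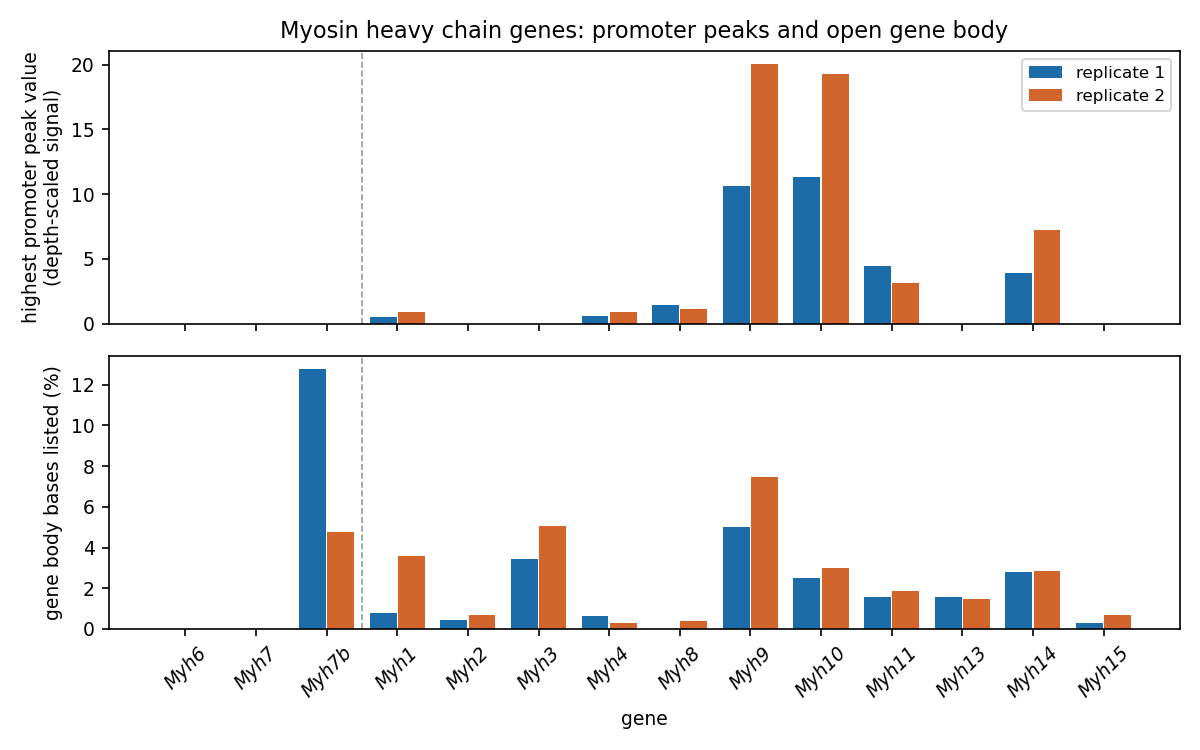
Highest promoter peak value (upper bars, depth-scaled signal) and percent of gene body bases listed (lower bars) for the 14 myosin heavy chain genes, blue for replicate 1 and orange for replicate 2, with the 3 slow and cardiac genes left of the dashed line. The 3 have no promoter bar, and only Myh7b among them has a body bar, 12.8% in replicate 1 and 4.74% in replicate 2.

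Of 11 slow sarcomere genes 7 had a promoter peak in both replicates, a share near the 65.4% of all protein-coding genes. Atp2a2, the slow and cardiac calcium pump, had 6.97 and 9.40, Tpm3, a slow tropomyosin, 3.50 and 9.46, and Tnnt1, slow troponin T, 1.12 and 1.83. Each value is the highest over all coding starts of the gene and was not assigned to a slow muscle transcript. Listed bases covered 41.6% and 43.0% of the sequence within 500 bp of the Tpm3 starts in replicates 1 and 2. The slow light chain Myl2, slow troponins Tnni1 and Tnnc1 and the pump inhibitor Pln had none in either replicate, while Myl2 gained one when coding transcripts outside the GENCODE basic set were included. All 21 regulators given here for slow and cardiac myosin genes, among them Sox6, Tead1, Mef2c and Esrrg, were open at a promoter in both libraries, and their median was 3.17 in replicate 1 and 5.06 in replicate 2, against medians of 1.84 and 2.27 over all genes. This list and the others were drawn up with earlier results of these data known, and their counts are descriptions.

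Over 38 listed myosin, slow and cardiac genes, likeness to each gene was measured by Euclidean distance over 4 values, log2(1 + percent listed) of the body and of the promoter in both replicates. Myh6 and Myh7 were identical to each other and to Tnnc1, Tnni3 and Myl7, at a distance of 0, because all 5 had no listed base in either region. The bodies of Tnnc1, Tnni3 and Myl7 are shorter, at 3418, 5925 and 2146 bp, against 25007 bp for Myh6 and 23943 bp for Myh7. A body without any listed base was found for 23.4% of protein-coding genes in replicate 1 and 23.2% in replicate 2, so this tie marks no pattern particular to these genes. The nearest to Myh7b were Tnni1 at 1.62, Myh3 at 1.63 and Myl2 at 1.88. Each had a listed body without a listed promoter, with body shares of 3.48% and 4.25% in Tnni1, 3.45% and 5.05% in Myh3 and 3.62% and 1.82% in Myl2.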

How the data were processed

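DNase-seq libraries of mouse gastrocnemius, 2 biological replicates of 1 group, were analysed from processed files. Per the labels and the notes in the deposited files, coordinates are mm10 and each library was processed on its own from filtered alignments. No label or file used here names an aligner or a peak caller. The peak values the authors deposited are a depth-scaled signal per peak, and the wider of 2 deposited sets was used. The other deposited files give a false discovery rate, a kind of adjusted p-value, for the cut rate per base, listing values below 0.05, and footprints with a constant p-value of 0.01. No total of reads was used, so depth is known only as tags per peak, from the step between values (tolerance 0.05 of a step).

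Peaks were shared at an overlap of at least 1 bp, and windows took peaks by their centre. Promoters were 500 bp either side of the starts of coding transcripts in the GENCODE M21 basic set. The labels give no condition to compare, so no test between groups was run. Interval, motif and 32-base word counts were checked against brute force on simulated data. Python 3.11.15, pandas 2.3.3, numpy 2.4.6, scipy 1.17.1 and numba 0.67.0 were used. Members, lists and motifs were chosen with earlier results of these data known. A listed regulator gene and a motif are not reported here. The text names the members, their microRNAs, every gene with a start in a window, every shared peak in a gene body and the 10 highest per window. Alternatives were other peak sets, overlaps, flanks, FDR limits and promoter definitions.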

Additional observations from a re-analysis of the deposited data

How the results depend on the processing

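The absence of a promoter peak at Myh6 and Myh7 held under every promoter width, choice of starts, peak set and single replicate tried. For Myh7b it held under all but the use of starts of all transcripts, coding or not, where 1 peak in both replicates was counted at Myh7b-202. The number of coding genes with a promoter peak in both replicates ranged from 13376 in the stricter peak set to 14714 without replicate 1. Shared peaks in the joint window of Myh6 and Myh7 numbered 13 in the stricter set and 15 at an overlap of at least 50% of the shorter peak, and 12 and 14 in the Myh7b window. With flanks of 10 kb, none and 100 kb they numbered 2, 0 and 28 for Myh6 and Myh7 and 6, 4 and 26 for Myh7b. Counting the peaks of 1 replicate gave 17 to 20 and 14 to 21. Shared footprints with flanks of 10 kb and none were 4 and 0 for Myh6 and Myh7 and 13 and 10 for Myh7b, and single replicates held 59 to 68 and 41 to 66. The mean listed share of the Myh6 window was 5.82%, and it was 5.15% at an FDR below 0.01, 4.41% below 0.001, 1.15% with 10 kb flanks and 0% without flanks. For Myh7 the share was 4.26%, with 3.69%, 3.10%, 0.935% and 0% under the same settings. For Myh7b it was 4.14%, with 2.72% below 0.001, 5.94% with 10 kb flanks and 8.75% without flanks. Fewer bases are counted by construction at a stricter FDR, and other flanks measure another stretch. Single replicates gave 5.37% to 6.27%, 3.88% to 4.64% and 3.42% to 4.85%. Coding transcripts outside the basic set were added as an alternative after the data were seen, with 14418 open genes. No paired analysis was possible because the study has a single group. With 2 libraries, the sites called in 1 library alone, before Myh7 and within Myh7b, cannot be checked further here.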
